A study of Rattus norvegicus with 300 samples.

Results

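The voltage-gated sodium and calcium channel genes were followed across 10 brain regions and 6 treatments of male Long Evans rats. They were chosen by symbol alone, as every row of the count table that starts with Cacna, Cacnb or Cacng, or that reads Scn, digits and then a or b. The choice gave 40 of 17337 gene symbols. Of these, 20 encode pore subunits, 10 of sodium channels and 10 of calcium channels. The other 20 encode accessory subunits, which were 4 sodium channel beta subunits, 4 calcium channel alpha2delta subunits, 4 calcium channel beta subunits and 8 members of the Cacng family. The rats were 60 days old and took their treatment in the drinking water for 3 weeks. Daily doses were 13 mg per kg for FT, 15 mg per kg for Bupropion and 7.5 mg per kg for Desipramine. Probiotics rats took a probiotic and Maltodextrin rats, which the labels call a control, took 10 g of it per litre. Control rats drank water alone. FT is not spelled out in the labels, and of the drugs in the protocol fluoxetine is the one that no other group name takes. All 3 are antidepressants, of which fluoxetine blocks uptake of serotonin, desipramine that of noradrenaline, and bupropion that of dopamine and noradrenaline. The regions are called here by their abbreviations in the labels, which are CGC, PLC, ILC, BLA, NACShell, mPOA, dorDG, venDG, LConly and Raphe. Every region of every treatment, 60 groups in all, held 5 libraries, made from frozen tissue punches that were pooled by region. How many rats went into a pool is not given, so p-values between treatments measure the spread between these 5 replicates only, which may be technical.

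Voltage-gated sodium channels open within the first instant of a depolarization and carry the upstroke of the action potential, and voltage-gated calcium channels turn that depolarization into calcium entry, which releases transmitter, drives calcium-dependent transcription and shapes bursts. In both families 1 large pore subunit holds the gate and the ion path and sets the type of current. Accessory subunits bring the pore to the membrane, shift its gating and bind it to other proteins, and a given accessory subunit can serve several pores. Most members of the Cacng family are known as TARPs, which carry AMPA-type glutamate receptors to the synapse and are counted as calcium channel subunits mainly by name. In bulk tissue fewer cells of a type and less RNA in each cell cannot be told apart.

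Several members lie side by side in the genome, and 2 such pairs recur in the results below. Scn3a and Scn2a, both sodium channel pores of chromosome 3, had no protein-coding gene between them and moved the same way in several comparisons. Scn2b and Scn4b, both sodium channel beta subunits of chromosome 8, also had none between them and differed in where they were high. Their promoter sequences, from 250 bases before to 50 bases after the gene start, are printed from RefSeq in build GRCr8, read 5′ to 3′ on the gene's own strand, with every CpG in capitals. Scn2a lies on the plus strand at chr3:70710706-70711005, Scn3a on the minus strand at chr3:70666149-70666448, Scn2b on the plus strand at chr8:54322133-54322432 and Scn4b on the plus strand at chr8:54343623-54343922.
Scn2a: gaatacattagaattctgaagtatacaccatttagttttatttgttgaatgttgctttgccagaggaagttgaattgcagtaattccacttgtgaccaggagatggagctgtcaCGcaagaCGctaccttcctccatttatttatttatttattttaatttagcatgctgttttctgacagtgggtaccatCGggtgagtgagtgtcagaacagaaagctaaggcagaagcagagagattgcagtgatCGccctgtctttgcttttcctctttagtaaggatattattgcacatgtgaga
Scn3a: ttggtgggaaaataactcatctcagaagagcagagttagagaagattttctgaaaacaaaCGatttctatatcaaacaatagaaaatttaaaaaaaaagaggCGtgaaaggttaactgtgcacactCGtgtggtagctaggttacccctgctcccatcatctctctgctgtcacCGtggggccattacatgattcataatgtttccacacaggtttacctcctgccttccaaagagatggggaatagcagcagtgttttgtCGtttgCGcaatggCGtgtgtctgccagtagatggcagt
Scn2b: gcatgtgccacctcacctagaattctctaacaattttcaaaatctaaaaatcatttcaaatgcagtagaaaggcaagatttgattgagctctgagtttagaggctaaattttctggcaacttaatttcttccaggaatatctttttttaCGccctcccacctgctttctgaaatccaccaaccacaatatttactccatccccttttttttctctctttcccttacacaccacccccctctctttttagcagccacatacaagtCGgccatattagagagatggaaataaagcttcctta
Scn4b: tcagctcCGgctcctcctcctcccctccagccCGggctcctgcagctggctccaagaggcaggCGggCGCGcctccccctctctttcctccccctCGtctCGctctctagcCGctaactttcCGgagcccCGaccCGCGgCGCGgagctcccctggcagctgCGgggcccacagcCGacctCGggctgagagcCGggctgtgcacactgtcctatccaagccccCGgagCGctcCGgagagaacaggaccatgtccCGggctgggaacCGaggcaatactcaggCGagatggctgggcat
The Scn4b promoter held 24 CpG at 70% G and C, and the Scn2b promoter 2 CpG at 39%. Scn2a had 4 CpG and Scn3a 7 CpG, the median of the 33469 promoters in the table. Of 5 motifs searched on both strands, GGGCGG (a GC box, in 33.1% of all promoters), TGACGTCA (1.83%), CACGTG (6.42%), TATAAA (14.2%) and TGANTCA (7.33%), the Scn3a window held 1 TGANTCA and the other 3 windows held none. A promoter was found for 27 of the 40 members.

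Depth ran from 198260 to 18310687 counts per library with a median of 9232563, and 4 Desipramine libraries lay under 1000000. By whole profile, 269 of 300 libraries were nearest to their own region in the other treatments. All 5 FT libraries labelled ILC lay nearest to LConly, and in those labelled LConly the level of Dbh, whose enzyme makes noradrenaline, was at 0.107 to 0.784 CPM (counts scaled to a total of 1000000 after TMM normalisation), against 152 to 165 in Control, so both groups were left out of the comparison of regions. Bupropion and Probiotics libraries of ILC lay nearest to PLC, 3 of 5 Maltodextrin libraries of PLC lay nearest to ILC, and BLA libraries carried Drd1, a dopamine receptor gene known from striatal neurons, at treatment means of 99.7 to 215 CPM, against 170 to 303 CPM in NACShell. Treatments were compared first over CGC, mPOA, NACShell, PLC and Raphe, whose counts were summed within a treatment replicate, and the 30 sums held 20703941 to 67629277 counts. In these regions earlier results of these data named no group with another region's markers. Even so, the 3 Maltodextrin libraries of PLC nearest to ILC were kept in the sums, as was 1 FT library of CGC nearest to PLC.

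Where in the brain each channel gene was high came first. Each region was set against the mean of the 9 others in 290 libraries with edgeR's quasi-likelihood test, and a gene was called at a Benjamini-Hochberg adjusted p under 0.05 and over 2-fold. This fit had no treatment by region term, so the spread behind its p-values mixes that between replicates with treatment differences that vary by region. The 5 libraries of a group entered it as separate samples, so very small p-values do not measure a spread between rats. Of the 40 members 38 passed the filter on low counts, and Scn10a and Cacng6 did not. Over 10 regions, 35 pairs of a member and a region were higher and 52 were lower, or 22.9% of 380. In Control libraries alone 60 pairs were higher. Among all genes tested 8.65% of such pairs were called, 4.30% higher and 4.35% lower. Accessory subunits made up 22 of the 35 higher pairs and 32 of the 52 lower ones. Among the 27 members with a mean of 5 CPM or more, the region with the highest level stood 4.03 times over the lowest in the median, against 1.83 times for the 9654 genes at such levels. That median was 4.64 times for 13 accessory subunits and 3.45 times for 14 pore subunits, and these ratios were not tested against each other.

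**Figure D1:**
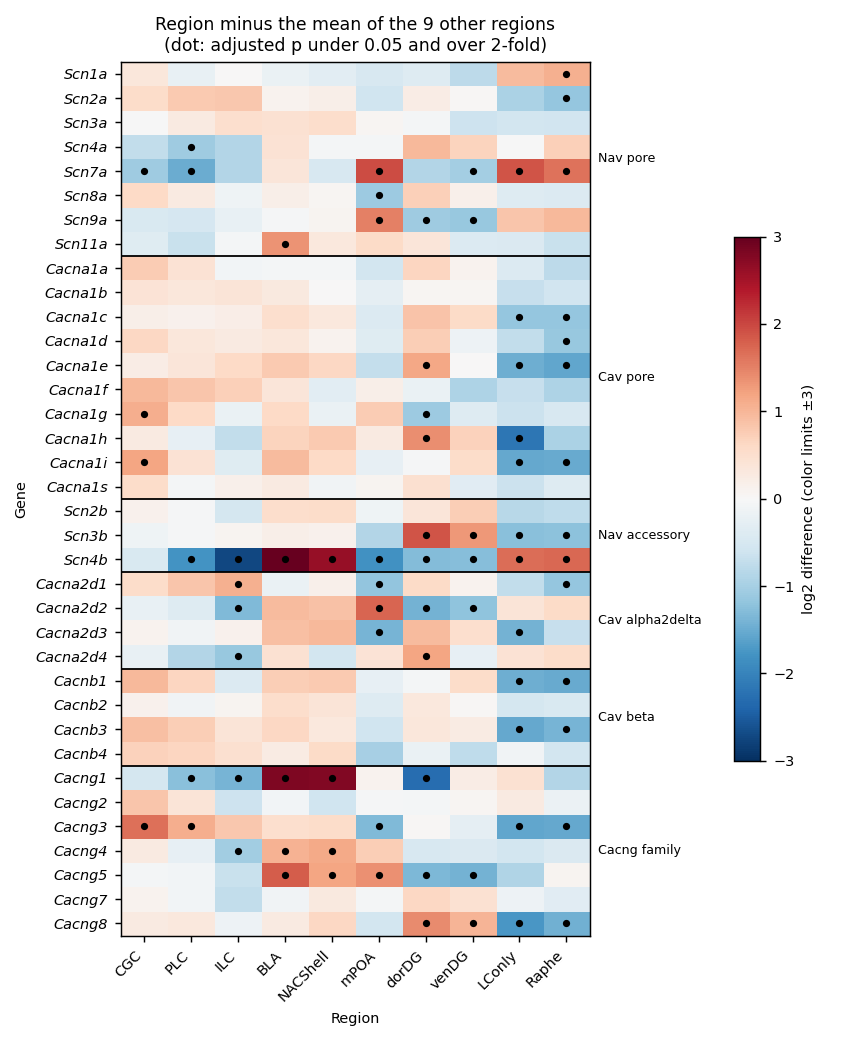
Heat map of the log2 difference between each region (columns) and the mean of the 9 other regions, for channel genes that were tested (rows, by role; 2 are not drawn); dots mark adjusted p under 0.05 and over 2-fold. Scn4b and Cacng1 are high in BLA and NACShell, Scn3b and Cacng8 in dorDG and venDG, Scn7a and Cacna2d2 in mPOA, and LConly and Raphe hold 10 and 11 of the lower calls (6.39% and 7.72% of all genes tested). The mPOA value of Scn7a includes FT libraries, which were higher there than Control.

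Scn4b, the beta subunit known to act as the blocking particle of resurgent sodium current, spanned the widest range of the members above 5 CPM. Its libraries ran from 37.1 to 435 CPM in BLA (median 331), from 127 to 251 in NACShell (203), from 73.6 to 166 in LConly (108) and from 90.7 to 145 in Raphe (113). In ILC they ran from 4.77 to 13.6 CPM (median 7), in PLC from 7.86 to 17.6 (12.8) and in mPOA from 4.76 to 25.1 (12.9). NACShell, LConly and Raphe libraries lay above every library of ILC, PLC and mPOA, and the BLA library at 37.1 CPM was the shallowest of the series, Desipramine replicate 3. The log2 difference to the other regions was 3.38 ± 0.044 (SE) in BLA (adjusted p = 2.85e-176) and 2.61 ± 0.047 in NACShell (5.71e-142), 1.73 ± 0.05 in Raphe and 1.67 ± 0.054 in LConly, against -2.74 ± 0.09 in ILC (8.43e-85), -1.81 ± 0.076 in mPOA, -1.8 ± 0.074 in PLC and -1.28 ± 0.071 in venDG. Drd1 moved with it in BLA and NACShell, as given above, and its part in the result was not tested. Scn3b, the beta subunit that binds its pore without a covalent bond, was highest in dorDG and venDG instead. It ran from 579 to 1073 CPM in dorDG (median 829) and from 363 to 802 in venDG (586), against 106 to 147 in Raphe (121), and no library of dorDG or venDG reached down to the Raphe range. The log2 difference was 1.88 ± 0.032 in dorDG (adjusted p = 1.42e-148) and 1.3 ± 0.034 in venDG (1.35e-106). Scn2b, which bonds covalently to its pore, varied between 50.3 ± 16.5 CPM (SD between 6 treatment means) in venDG and 20.1 CPM in LConly and Raphe, and no region passed 2-fold. For ILC and LConly such means and SDs leave out FT, here and below. Over the 10 regional means, the neighbours Scn2b and Scn4b had a correlation of 0.05, as a description.

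**Figure D2:**
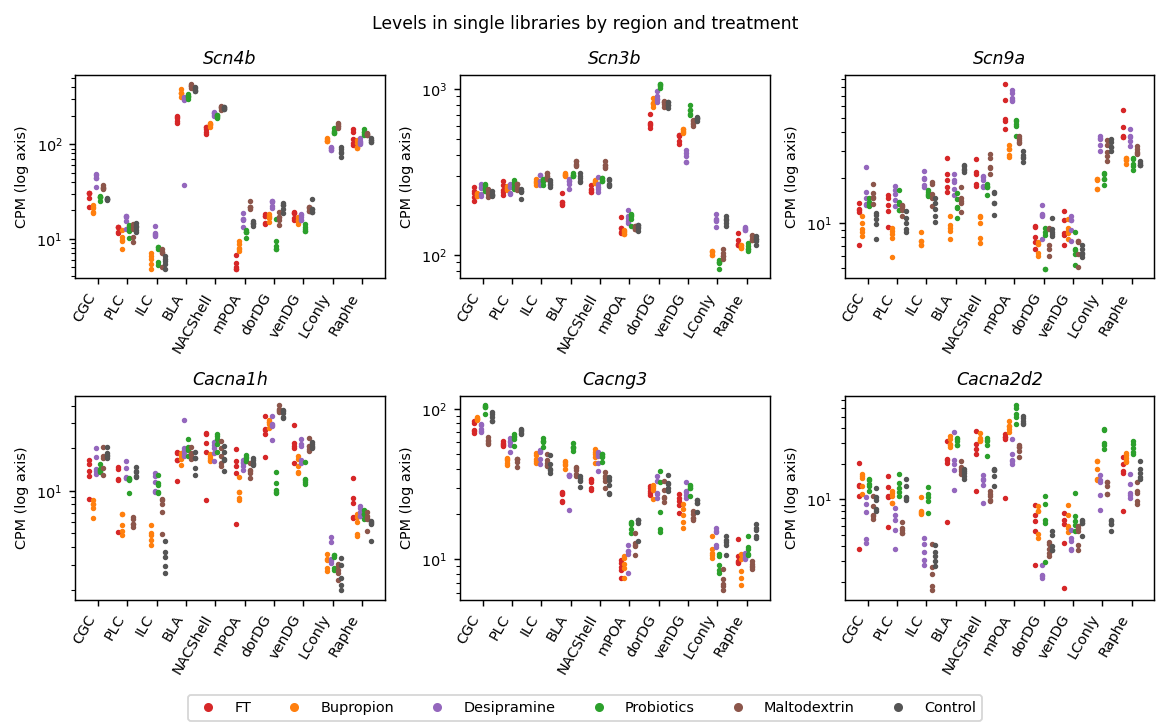
CPM of 6 channel genes in single libraries (log axis), by region and colored by treatment, without the FT libraries labelled ILC and LConly. The Scn4b and Scn3b points separate regions by more than the treatments, while the treatments of one region spread apart for Cacna2d2 and Cacng3.

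Among sodium channel pores the 2 abundant forms differed most in Raphe and LConly, which were highest in one and lowest in the other, while CGC was the third highest region of both. Scn1a, the main pore of fast-spiking inhibitory neurons, was highest in Raphe at 205 ± 31 CPM and LConly at 199 ± 23.2, and lowest in venDG at 64 ± 10.9. Scn2a, a pore of the axon initial segment of excitatory neurons, was highest in ILC at 652 ± 79.1 CPM and PLC at 627 ± 71.1, and lowest in Raphe at 190 ± 19. The Raphe difference was 1.06 ± 0.04 on the log2 scale for Scn1a (adjusted p = 9.61e-74), or 0.83 in Control libraries alone, and Scn2a was called lower there. Scn3a, best known from the embryonic brain, lay between 112 CPM in NACShell and 54.7 CPM in venDG, and Scn8a, the pore of nodes of Ranvier, between 72.8 CPM in dorDG and 24.7 CPM in mPOA. Scn7a, a relative that senses sodium in the circumventricular organs, and Scn9a, known from sensory and neurosecretory neurons, shared mPOA, LConly and Raphe as their 3 highest regions. Scn7a stood at 13.3 ± 9.6, 10.9 ± 2.66 and 10 ± 1.78 CPM there (log2 differences of 1.95 ± 0.097, 1.88 ± 0.1 and 1.64 ± 0.098), and Scn9a at 44.2 ± 16.5, 27.2 ± 7.52 and 30.9 ± 7.33 CPM. The mPOA values of Scn7a include FT, in which it was higher than in Control there by 2.18 on the log2 scale. Scn7a was called lower in PLC, at -1.49 ± 0.15, and in CGC, at -1.06 ± 0.15. The 2 genes lie next to each other, and their regional means correlated at 0.91 over 10 regions, which share their libraries. Scn4a, the channel of skeletal muscle, peaked at 2.05 CPM in dorDG, and the sensory neuron channels Scn10a and Scn11a stayed under 1 CPM, with their highest means of 0.79 and 0.939 CPM in BLA.

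Of the 10 calcium channel pores 8 had their lowest mean in LConly or Raphe. The share of all genes with their lowest mean there was not counted. Of their 9 lower calls, 4 were in LConly, 4 in Raphe and 1 in dorDG, and their 4 higher calls were in CGC and dorDG, 2 in each. Among all genes tested 6.39% were called lower in LConly and 7.72% in Raphe. In LConly and Raphe 5 of 5 oligodendrocyte markers were higher (median log2 differences of 2.07 and 2.58). Of 6 excitatory neuron markers 5 were lower and 1 higher in each (medians of -1.93 and -2.38). The part of these markers was not tested. Cacna1a carries the P/Q-type current of fast synapses, Cacna1b the N-type and Cacna1e the R-type. Cacna1a ran between 49 ± 6.96 CPM in CGC and 19.4 ± 7.2 in Raphe, Cacna1b between 79.9 ± 16.7 in CGC and 40 ± 10.3 in LConly, and Cacna1e between 114 ± 17.7 in dorDG and 21.5 ± 2.22 in Raphe. In Raphe the difference of Cacna1e was -1.56 ± 0.065 (adjusted p = 3.58e-66). The L-type pores Cacna1c and Cacna1d, which couple depolarization to transcription, were both highest in dorDG, at 33.1 ± 2.34 and 55.8 ± 15.9 CPM, and Cacna1c was lowest in LConly at 9.56 ± 1.59 and Cacna1d in Raphe at 18 ± 2.98. The T-type pores, which open near rest and shape bursts, differed from each other. Cacna1h ran from 9.65 to 40.4 CPM in dorDG libraries (median 30.1), against 1.98 to 4.71 in LConly (3.02), without overlap between the regions. Its log2 difference was 1.4 ± 0.065 in dorDG (adjusted p = 1.63e-57) and -2.16 ± 0.11 in LConly (5.38e-55). Cacna1g was lowest in dorDG, at 7.54 ± 1.98 CPM, and highest in CGC at 29.9 ± 5.44. Cacna1i was highest in CGC as well, at 10.7 ± 2.01 CPM, and lowest in LConly at 1.91 ± 0.827. The difference of Cacna1i was 1.19 ± 0.089 in CGC and -1.52 ± 0.12 in Raphe. Cacna1f, a channel of the retina, and Cacna1s, that of skeletal muscle, peaked in CGC at 1.18 and 0.728 CPM.

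The alpha2delta subunits, which bring calcium channels to the membrane and of which Cacna2d1 and Cacna2d2 bind gabapentin, had 3 different maps. Cacna2d1 was highest in ILC at 381 ± 38.8 CPM and lowest in mPOA at 94.6 ± 25.9, and its ILC difference was 1.06 ± 0.049, or 0.9 with all 300 libraries as labelled. Cacna2d2 was highest in mPOA, at 10.2 to 63.3 CPM (median 36.6), and lowest in dorDG at 5.08 ± 2.06, with a log2 difference of 1.74 ± 0.055 in mPOA (adjusted p = 1.62e-89), against -1.42 ± 0.083 in dorDG, -1.32 ± 0.085 in ILC and -1.2 ± 0.079 in venDG. Cacna2d3 was highest in NACShell at 84.1 ± 26.7 CPM and lowest in mPOA at 19.4 ± 4.29 (-1.39 ± 0.049). Cacna2d4, known from the retina, stayed at 0.976 CPM or lower. The beta subunits, which bind inside the cell and keep pores from being degraded, were more alike. Cacnb1 peaked in CGC at 78.7 ± 17.8 CPM, Cacnb3 at 142 ± 37 and Cacnb4 at 245 ± 52.1, and Cacnb2 in BLA at 38.9 ± 3.82. The lowest means were 17 CPM in LConly for Cacnb1, 20.9 for Cacnb2 and 30.3 for Cacnb3, and 86.3 CPM in mPOA for Cacnb4. Over regional means Cacnb1 was most like Cacna1i, at a correlation of 0.98, and Cacnb3 most like Cacna1b, at 0.96.

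In the Cacng family the TARPs differed in where they were high. Cacng3 was highest in CGC and PLC, at 58.5 to 106 CPM in CGC (median 82.5), against 6.73 to 17.3 CPM in Raphe (10.5). Its log2 difference was 1.66 ± 0.042 in CGC (adjusted p = 5.4e-108) and 1.1 ± 0.044 in PLC, against -1.56 ± 0.065 in LConly, -1.53 ± 0.06 in Raphe and -1.33 ± 0.06 in mPOA. The LConly difference of Cacng3 was -0.82 with the FT libraries of ILC and LConly kept as labelled. Cacng2, or stargazin, was also highest in CGC, at 32.4 ± 3.68 CPM, and lowest in ILC at 12.8 ± 4.94. Cacng8, the main TARP of the hippocampus, was highest in dorDG at 9.51 ± 1.62 CPM and venDG at 7.58 ± 1.89 and lowest in LConly at 1.31 ± 0.415. Its log2 differences there were 1.41 ± 0.058, 1.01 ± 0.06 and -1.74 ± 0.092, of which that of venDG lay at the 2-fold limit. Cacng4 was highest in NACShell at 4.95 ± 2.06 CPM, Cacng5 in BLA at 8.19 ± 2.27 and Cacng7 in dorDG at 4.95 ± 0.976. Cacng1 and Cacng6, which belong to muscle calcium channels, reached 1.01 CPM in BLA and 0.473 CPM in dorDG, so that few reads lie behind them. The log2 difference of Cacng1 was 2.81 ± 0.16 in BLA and 2.78 ± 0.17 in NACShell, against -2.29 ± 0.39 in dorDG, -1.4 ± 0.34 in ILC and -1.25 ± 0.3 in PLC. In Control libraries alone the ILC and PLC differences of Cacng1 were not called (adjusted p = 0.941 and 0.997). That of Cacng5 was 1.82 ± 0.065 in BLA and -1.42 ± 0.1 in venDG.

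Over the 5 regions every sodium or calcium channel pore called with FT was higher, while accessory subunits split. With edgeR's quasi-likelihood test on 30 sums, 17 of 40 members rose and 5 fell at an adjusted p under 0.05, when 58.7% of 13951 genes tested were called, 28.3% higher and 30.4% lower. Of 20 pores 11 rose and 0 fell, with a median log2 change of 0.2, and over all 10 regions 9 rose and 2 fell (median 0.11). Of 20 accessory subunits 6 rose and 5 fell, with a median of -0.034. Over all genes the median was -0.0074. The pores that rose included Scn2a, Scn3a, Scn7a, Scn9a and Scn11a among sodium channels, and Cacna1a, Cacna1b, Cacna1c, Cacna1d and Cacna1g among calcium channels. Over 8 regions, without ILC and LConly, the changes of Scn2a (-0.0051), Scn11a (0.1), Cacna1b (-0.01) and Cacna1c (-0.0011) were not called. The Scn2a rise of 0.1 also lost its call without any one of CGC, mPOA, PLC or Raphe and without FT replicate 1 (0.048) or 3 (0.1) or Control replicate 1 (0.093) or 5 (0.096), and that of Scn11a without FT replicate 4 (0.57). Against Control and Maltodextrin pooled, Scn3a came to 0.016 and Cacna1b to 0.044, neither called. Cacna1a stood at 48.9, 39.6, 43.1, 41.8 and 36.4 CPM (adjusted for the depth of the 5 regions) in FT, against 26.1, 26.2, 27.8, 27.3 and 26.6 in Control. All FT replicates were above all Control replicates, and Cacna1a rose by 0.64 ± 0.05 (log2 change ± SE, adjusted p = 4.36e-12). Scn9a stood at 38.7, 24.8, 31.6, 27.6 and 23.6 CPM in FT, against 18.1, 17.3, 18.3, 17.4 and 17.5 in Control, a rise of 0.71 ± 0.074 (adjusted p = 1.87e-09) without overlap. Scn7a stood at 13.4, 8.38, 10.4, 9.22 and 9.23 CPM in FT, against 4.72, 4.45, 3.91, 3.77 and 3.97 in Control, a rise of 1.26 ± 0.087 (adjusted p = 3.3e-13). The Scn7a change was 0.45 without mPOA, 0.47 over all 10 regions and 0.75 with limma on the mean of regions. 

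Cacnb4, the beta subunit that goes mainly with P/Q-type pores, stood at 217, 172, 186, 194 and 174 CPM in FT, against 139, 132, 142, 141 and 142 in Control, and rose by 0.44 ± 0.042 (adjusted p = 4.28e-10). The TARPs Cacng7 and Cacng8 rose too, by 0.83 ± 0.099 and 0.5 ± 0.11. Cacna2d3 was lower in every FT replicate, at 33.9, 34.9, 37, 33.1 and 33.2 CPM, against 50.2, 49.6, 47.5, 48.1 and 47.4 in Control, and fell by 0.5 ± 0.04 on the log2 scale (adjusted p = 1e-11). Scn2b stood at 22.1, 27.8, 27.6, 28.2 and 27.3 CPM in FT, against 37.1, 40, 40.2, 38.4 and 36.8 in Control, and fell by 0.53 ± 0.051 (adjusted p = 4.16e-10). Its neighbour Scn4b fell by 0.38 ± 0.046 (adjusted p = 3.07e-08), and without NACShell its change was -0.0075 (adjusted p = 0.926). Cacng3 fell by 0.3 ± 0.041 (adjusted p = 2.6e-07), and against Control and Maltodextrin pooled its change was -0.047 (adjusted p = 0.263). Cacng1, at 0.183 ± 0.0649 CPM in FT and 0.379 ± 0.0572 CPM in Control (SD, n = 5 each), fell by 1.14 ± 0.29 (adjusted p = 0.0014), or by 0.37 with limma. Taken singly, only 1 of the 5 regions had enough reads of Cacng1 to be tested, and without NACShell its call was lost. FT replicate 1 was the lowest FT replicate for Scn2b and for Cacna2d2, at 8.02 CPM against 20.6 to 26.1 in the 4 others. The summed level of 5 oligodendrocyte markers was lower in 5 of 5 FT replicates (18570 to 29692 CPM in FT, 44478 to 53728 in Control), as was that of 4 microglia markers (154 to 285 CPM in FT, 312 to 333 in Control) and of 4 mural cell markers (69.4 to 75.6 CPM in FT, 147 to 159 in Control), all 4 of which were called lower. The sum of 4 general neuron markers was lower too (4758 to 4872 CPM in FT, 6092 to 6434 in Control), but among them Snap25 alone fell, by 0.56, and Rbfox3, Stmn2 and Syt1 rose by 0.36, 0.18 and 0.18. The part of these markers in the changes was not tested.

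**Figure D3:**
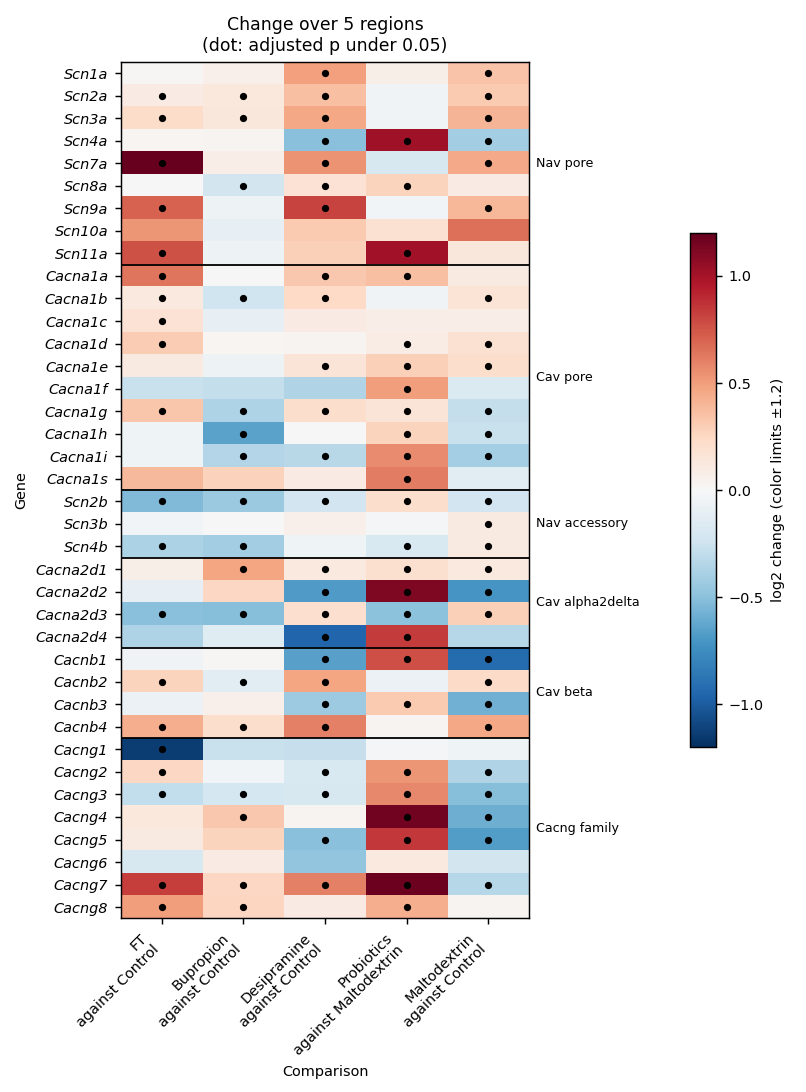
Heat map of log2 changes over 5 regions in the 5 comparisons (columns) for channel genes (rows, pores above accessory subunits; 2 of the 40 are not drawn); dots mark adjusted p under 0.05. Over all 40 genes FT has 11 higher and 0 lower pores, Desipramine 10 higher and 2 lower, and Probiotics 25 higher and 2 lower genes in all.

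Bupropion gave the smallest count of the 5 comparisons and no common direction. Over the 5 regions 9 members rose and 10 fell, when 50.5% of all genes were called, 24.3% higher and 26.2% lower. Of the pores 3 rose and 5 fell, and all 4 calcium channel pores that were called fell. Of the accessory subunits 6 rose and 5 fell. The Control values are those that serve in the FT comparison, so the comparisons are not independent. Cacna2d1, the gabapentin-binding subunit, stood at 244, 242, 249, 246 and 256 CPM in Bupropion, against 184, 174, 182, 181 and 173 in Control. Bupropion and Control did not overlap, and Cacna2d1 rose by 0.47 ± 0.039 (adjusted p = 3.71e-11). Cacnb4 rose by 0.21 ± 0.042 (adjusted p = 8.28e-05) and Scn2a by 0.13 ± 0.041 (adjusted p = 0.00843), and the Scn2a change came to 0.026 (adjusted p = 0.619) without PLC and to 0.028 (adjusted p = 0.534) over 10 regions. Cacng4 rose by 0.32 ± 0.1 (adjusted p = 0.0113), but was at -0.084 without NACShell and at 0.25 (adjusted p = 0.0786) with limma.

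Cacna2d3 fell with Bupropion as well, at 34.1, 36.2, 33.6, 32.9 and 33.5 CPM in Bupropion, against 50.2, 49.6, 47.5, 48.1 and 47.4 in Control, by 0.51 ± 0.039 on the log2 scale (adjusted p = 8.85e-12). Scn4b stood at 60.4, 62.9, 60.6, 58.3 and 59.3 CPM in Bupropion, against 78.7, 82.4, 79.5, 82.2 and 82 in Control, and fell by 0.42 ± 0.045 (adjusted p = 5.52e-09). The Bupropion replicates of both genes lay below all Control replicates. Scn2b fell by 0.45 ± 0.05 (adjusted p = 1.16e-08). Among calcium channel pores the N-type Cacna1b fell by 0.24 ± 0.027 (adjusted p = 9.42e-09) and the T-type Cacna1g by 0.37 ± 0.045 (adjusted p = 4.65e-08), Cacna1h by 0.64 ± 0.11 and Cacna1i by 0.35 ± 0.1. The Cacna1i change was -0.042 over 10 regions (adjusted p = 0.758), -0.24 without CGC, -0.098 without PLC and -0.13 with limma, and was called in none of these, and that of Cacna1g came to -0.12 over 10 regions (adjusted p = 0.00599). Oligodendrocyte markers were at 38235 to 43476 CPM in Bupropion, against 44478 to 53728 in Control, with 3 of 5 called lower, and mural cell markers at 98 to 108 CPM in Bupropion, against 147 to 159 in Control, with 4 of 4 called lower. Their part was not tested.

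With Desipramine most of the pores called were higher, and the beta subunits of calcium channels split. Over the 5 regions 15 members rose and 11 fell, when 66.4% of all genes were called, 30.9% higher and 35.5% lower. Of the pores 10 rose and 2 fell (median 0.19), and of the accessory subunits 5 rose and 9 fell (median -0.19). Control is again shared. Against Control and Maltodextrin pooled, 16 of the 26 members called kept their call. Over 10 regions 18 kept it, and 1 was called the opposite way. Maltodextrin against the same Control also raised Scn2a (0.31), Scn3a (0.41) and Cacnb4 (0.46), and lowered Cacnb1 (-0.92), Cacnb3 (-0.58) and Cacng3 (-0.51). Desipramine was not tested against Maltodextrin. Scn2a stood at 467, 485, 462, 472 and 451 CPM in Desipramine, against 353, 369, 368, 369 and 356 in Control, a rise of 0.36 ± 0.041 (adjusted p = 4.72e-09). Scn9a stood at 31.7, 31.7, 30.7, 30.5 and 30.4 CPM in Desipramine, against 18.1, 17.3, 18.3, 17.4 and 17.5 in Control, a rise of 0.81 ± 0.074 (adjusted p = 9.72e-11). Desipramine lay above Control in every replicate of both. Scn1a rose by 0.49 ± 0.07 and Scn3a by 0.46 ± 0.056. Scn8a was called at 0.17 ± 0.061, but not over 8 regions (0.083), against Control and Maltodextrin pooled (0.12), without CGC (0.082), without PLC (0.12), without Desipramine replicate 2 (0.13) or without Control replicate 5 (0.14). Cacna1b rose by 0.24 ± 0.027 (adjusted p = 4.93e-09).

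Cacnb4 stood at 207, 217, 204, 213 and 214 CPM in Desipramine, against 139, 132, 142, 141 and 142 in Control, and rose by 0.6 ± 0.042 (adjusted p = 5.29e-13), the smallest p among members in this comparison. Cacnb2, the beta subunit of the heart, rose by 0.47 ± 0.048 (adjusted p = 9.89e-10). Cacnb1, that of skeletal muscle, went the other way, at 43.1, 37.4, 42.5, 41.1 and 45.6 CPM in Desipramine, against 67.2, 66, 64, 65.7 and 66.9 in Control, and fell by 0.65 ± 0.077 (adjusted p = 1.45e-08). Cacnb3 fell by 0.44 ± 0.068 (adjusted p = 1.56e-06). Both falling genes had no Desipramine replicate inside the Control range. Cacna2d2 stood at 12.3, 11.3, 13.6, 14.1 and 15 CPM in Desipramine, against 18.2, 19.7, 21.1, 24.4 and 22.7 in Control, and fell by 0.68 ± 0.15 (adjusted p = 0.000216). Cacng3 fell by 0.19 ± 0.04 (adjusted p = 0.000169), and over 10 regions its change was -0.06 (adjusted p = 0.173). Scn2b fell by 0.23 ± 0.05 (adjusted p = 0.000192), and without Raphe its change was -0.11 (adjusted p = 0.0627). Oligodendrocyte markers were lower in 5 of 5 Desipramine replicates, at 19697 to 23138 CPM, against 44478 to 53728 in Control. Microglia markers stood at 169 to 193 CPM in Desipramine, against 312 to 333 in Control, and mural cell markers at 80.3 to 91.6 CPM in Desipramine, against 147 to 159 in Control. Their part was not tested.

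Probiotics, set against Maltodextrin, gave the most one-sided count. Over the 5 regions 25 members rose and 2 fell, when 51.5% of all genes were called, 25.7% higher and 25.8% lower. With the replicate number as a block 26 of the 27 kept their call, and Cacna1h (0.27) did not. Of the pores 12 rose and 0 fell (median 0.22), 8 of them among the 10 calcium channel pores. Without PLC, where 3 of 5 Maltodextrin libraries lay nearest to ILC, 23 of the 27 kept their call. The calcium channel pores Cacna1d, Cacna1e, Cacna1g and Cacna1h did not. Over all 10 regions 8 pores rose and 3 fell (median 0.044), 5 and 3 of them calcium channel pores. There Cacna1d was called lower at -0.11 (adjusted p = 0.000727), against a called rise of 0.087 over the 5 regions, and Cacna1h lower at -0.23 (adjusted p = 0.0432), against 0.27. Of the accessory subunits 13 rose and 2 fell (median 0.37), and all 6 TARPs were among the risers. Cacng3 stood at 50.3, 49.4, 49.7, 49.8 and 45.4 CPM in Probiotics, against 33, 33, 32.1, 32.8 and 32.7 in Maltodextrin, a rise of 0.58 ± 0.041 (adjusted p = 1.1e-12). Cacng7 stood at 4.2, 4.62, 4.34, 4.85 and 5.14 CPM in Probiotics, against 2.16, 1.92, 1.94, 2.17 and 2.03 in Maltodextrin, a rise of 1.18 ± 0.1 (adjusted p = 1.18e-10). No Probiotics replicate overlapped Maltodextrin in either gene. Cacng4 rose by 1.16 ± 0.11 (adjusted p = 1.13e-09), Cacng2 by 0.53 ± 0.053 (adjusted p = 1.63e-09), Cacng5 by 0.85 ± 0.13 and Cacng8 by 0.44 ± 0.11. Over 10 regions the Cacng8 change was 0.21 and was not called (adjusted p = 0.089). Cacnb1 stood at 61.3, 56.6, 62.1, 55.4 and 61.1 CPM in Probiotics, against 34.4, 31.8, 34.8, 37 and 35.9 in Maltodextrin, a rise of 0.77 ± 0.078 (adjusted p = 1.81e-09). Cacna2d2 rose by 1.12 ± 0.15. Maltodextrin itself was lower than Control in Cacnb1 (log2 change -0.92), Cacng3 (-0.51) and Cacng2 (-0.36). Of the 8 Cacng family members 0 rose and 5 fell with Maltodextrin against Control, and over 10 regions 0 rose and 2 fell. Probiotics was not tested against Control. By the levels printed for Control, all Probiotics replicates of Cacnb1 lay below all Control replicates, and those of Cacng3 overlapped with Control.

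Cacna2d3 fell with Probiotics, at 41.6, 43.8, 43, 41.1 and 40.8 CPM in Probiotics, against 58.3, 60.7, 60.9, 59.7 and 56.1 in Maltodextrin, by 0.49 ± 0.039 on the log2 scale (adjusted p = 1.84e-11). Scn4b fell by 0.18 ± 0.045 (adjusted p = 0.00171), and without NACShell its change was -0.09 (adjusted p = 0.233). Among the pores called, Scn4a rose by 1.02 ± 0.14, Cacna1i by 0.57 ± 0.11 and Cacna1a by 0.36 ± 0.05, and over 8 regions the Cacna1i change was 0.17 (adjusted p = 0.173). Scn2a, Scn3a and Scn9a were not called, at log2 changes of -0.041, -0.04 and -0.029. Oligodendrocyte markers ran from 30199 to 41635 CPM in Probiotics and from 35863 to 43132 in Maltodextrin, and mural cell markers from 122 to 128 in Probiotics and from 153 to 158 in Maltodextrin. The sum of 4 general neuron markers ran from 5526 to 5848 CPM in Probiotics and from 5976 to 6501 in Maltodextrin, with Snap25 lower (-0.25), Rbfox3 and Syt1 higher (0.77 and 0.66) and Stmn2 not called. Of 6 excitatory neuron markers 4 rose and 2 fell, with a median of 0.37. The part of these markers was not tested.

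Maltodextrin alone moved as many members down as up when set against Control. Over the 5 regions 14 members rose and 15 fell, when 53.3% of all genes were called, 26.1% higher and 27.2% lower. Without PLC, where 3 of 5 Maltodextrin libraries lay nearest to ILC, 23 of these 29 members kept their call. Of the pores 8 rose and 5 fell (median 0.12), and of the accessory subunits 6 rose and 10 fell (median -0.28). The Maltodextrin replicates are the ones set against Probiotics above, and Control is shared with the drugs. Cacnb1 stood at 34.4, 31.8, 34.8, 37 and 35.9 CPM in Maltodextrin, against 67.2, 66, 64, 65.7 and 66.9 in Control, and fell by 0.92 ± 0.078 (adjusted p = 1.65e-10). Cacng3 stood at 33, 33, 32.1, 32.8 and 32.7 CPM in Maltodextrin, against 46.3, 48.3, 44.9, 44.7 and 48 in Control, and fell by 0.51 ± 0.041 (adjusted p = 6.46e-11). Neither gene had an overlap between the groups. Cacnb3 fell by 0.58 ± 0.068 (adjusted p = 6.64e-08) and Cacng2 by 0.36 ± 0.053 (adjusted p = 2.01e-06). Cacng2 was at -0.19 without PLC and at -0.04 (adjusted p = 0.531) over 10 regions.

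Of the genes that rose with Maltodextrin, Scn2a stood at 446, 454, 458, 447 and 439 CPM in Maltodextrin, against 353, 369, 368, 369 and 356 in Control, a rise of 0.31 ± 0.041 (adjusted p = 4.6e-07). Its neighbour Scn3a stood at 94.1, 96.8, 99, 96.2 and 92.3 CPM in Maltodextrin, against 71.8, 72.1, 74.6, 72.7 and 67.8 in Control, a rise of 0.41 ± 0.056 (adjusted p = 5.68e-07). All Maltodextrin replicates of the pair were above all Control replicates. Cacnb4 rose by 0.46 ± 0.042 (adjusted p = 7.43e-10), Cacna1b by 0.16 ± 0.027 (adjusted p = 1.27e-05) and Cacna2d3 by 0.29 ± 0.039 (adjusted p = 7.68e-07), and the last came to 0.073 (adjusted p = 0.0964) over 10 regions. Over the 5 regions Scn3b was called in this comparison alone of the 5, with a rise of 0.11 ± 0.031. That call was lost without NACShell and over 8 regions, and over 10 regions the change was 0.047 (adjusted p = 0.175). Over 10 regions Scn3b was instead called lower with FT (-0.23, adjusted p = 3.75e-08) and Desipramine (-0.089, adjusted p = 0.0065). With Probiotics it was called higher there (0.11, adjusted p = 0.00217). Whether its change differed between comparisons was not tested. Microglia markers were lower in Maltodextrin, at 236 to 261 CPM, against 312 to 333 in Control, and their part was not tested. Scn10a and Cacng6, both under 1 CPM, were called in none of the 5 comparisons over the 5 regions by edgeR. Over 10 regions Scn10a was called higher with Maltodextrin (0.56, adjusted p = 0.0175) and Cacng6 lower with Desipramine (-0.86, adjusted p = 0.0018).

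**Figure D4:**
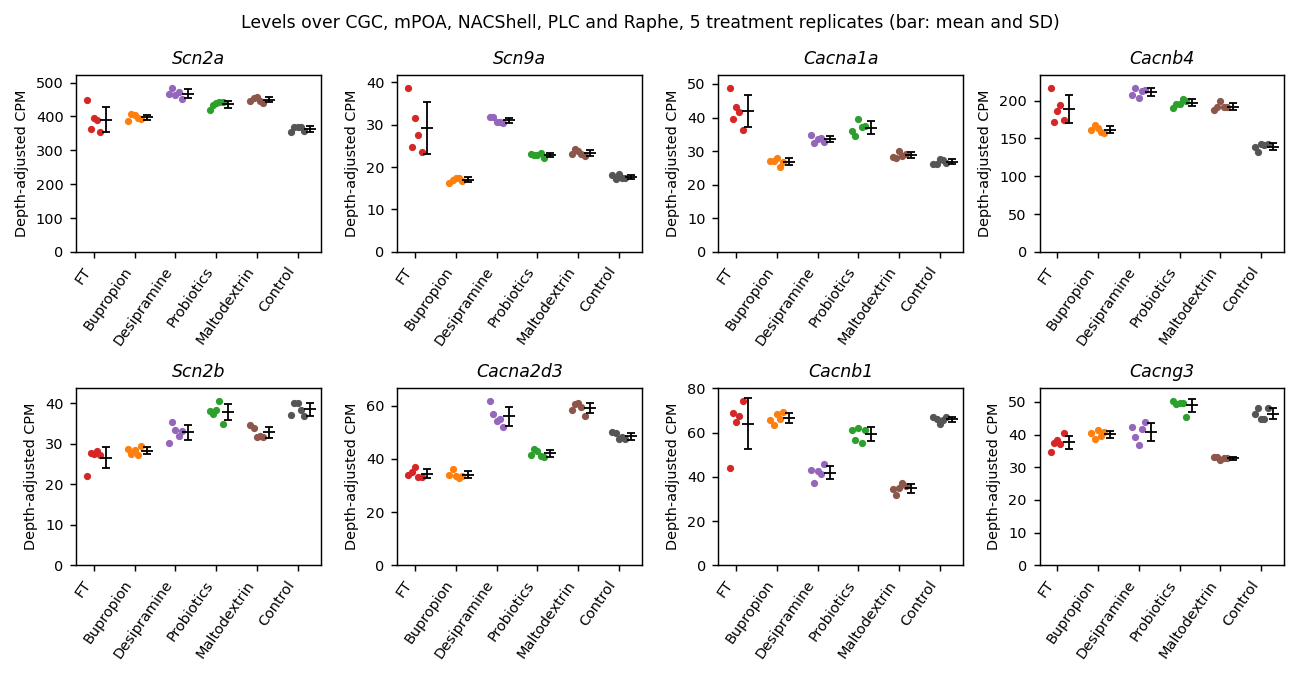
Depth-adjusted CPM over 5 regions of 8 channel genes in the 5 replicates of each treatment, with mean and SD as bars. The mean of Cacnb4 is lowest in Control and highest in Desipramine, Cacna2d3 is lower in FT and Bupropion than in Control and lower in Probiotics than in Maltodextrin, and Cacnb1 and Cacng3 are lower in Maltodextrin than in Control.

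Single regions were then fitted one at a time. Of 400 pairs of a member and a region, 341 passed the filter on low counts, and members that passed were the more abundant ones. With FT 148 pairs were higher and 75 lower, when 53.4% of all gene and region pairs were called, 27.1% higher and 26.3% lower. Without the regions ILC and LConly the FT counts were 99 higher and 60 lower, when 47.3% were called, 23.9% higher and 23.4% lower. With Bupropion 100 were higher and 82 lower (46.3% of all pairs called, 22.9% higher and 23.4% lower). With Desipramine 139 were higher and 59 lower (54.3%, 26.4% and 27.9%). With Probiotics 149 were higher and 64 lower (42.8%, 21.7% and 21.1%), and with Maltodextrin 109 were higher and 73 lower (37.9%, 18.4% and 19.5%). In the 5 regions alone, FT pores were higher in 42 pairs and lower in 5, against 35 and 22 for accessory subunits, when 48.5% of all pairs were called, 25.2% higher and 23.3% lower. Desipramine pores were higher in 39 and lower in 5 of those pairs, and its accessory subunits in 29 and 25 (56.6%, 27.4% and 29.2%). Bupropion pores were higher in 15 and lower in 25, and its accessory subunits in 27 and 26 (45.9%, 22.8% and 23.1%). For Probiotics the counts were 31 and 15 for pores, and 56 and 12 for accessory subunits (38.7%, 20.2% and 18.5%). For Maltodextrin they were 33 and 12 for pores, and 19 and 38 for accessory subunits (42.5%, 20.4% and 22.1%).

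**Figure D5:**
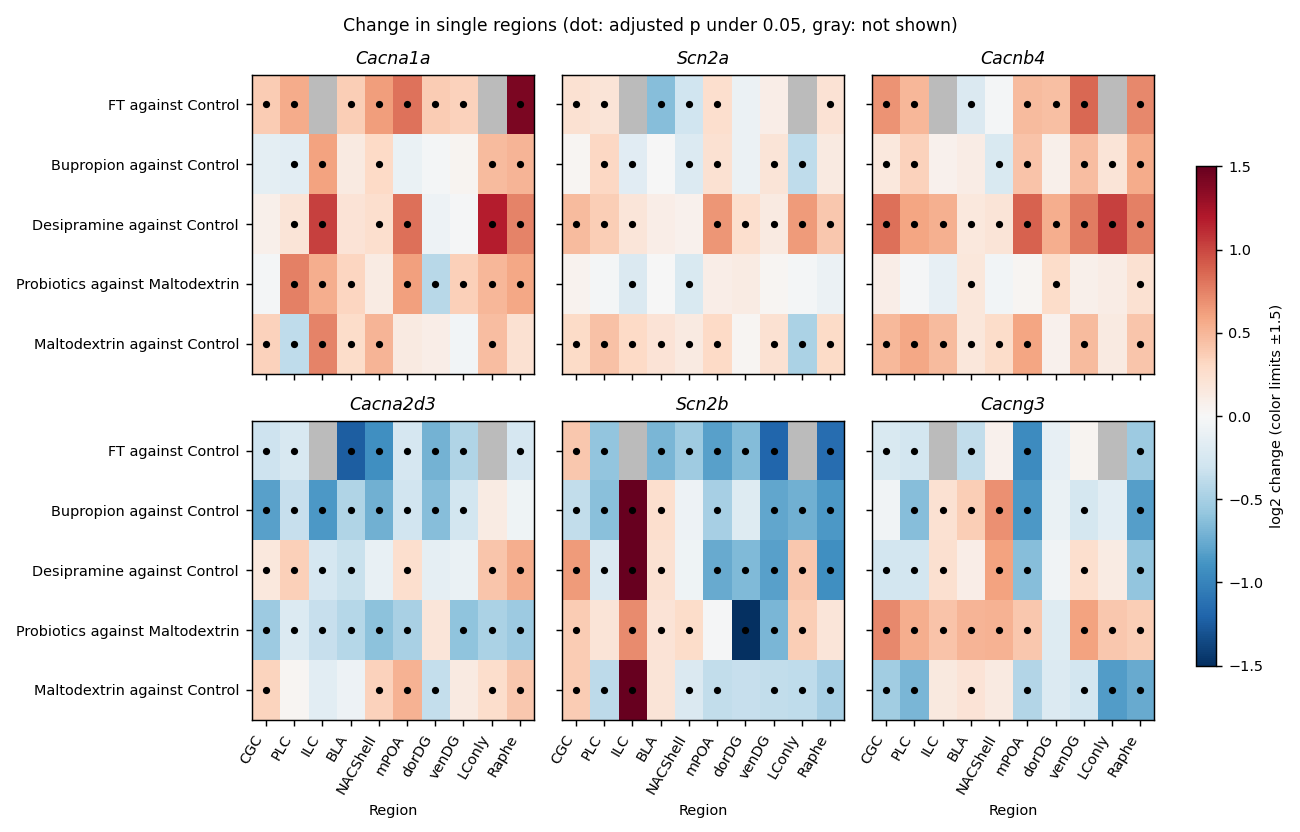
Log2 change of 6 channel genes in each region (columns) and comparison (rows); dots mark adjusted p under 0.05, and gray cells are the FT libraries labelled ILC and LConly. Cacna1a is higher with FT in all 8 regions shown, Cacnb4 is higher with Desipramine in 10 of 10, and Cacna2d3 is lower in 8 regions with FT, 8 with Bupropion and 9 with Probiotics.

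A few members were called the same way almost everywhere. With FT, Cacna1a was higher in all 8 regions outside ILC and LConly, by 0.34 in venDG to 1.41 in Raphe, and Cacna2d3 was lower in all 8, by -0.24 in PLC to -1.24 in BLA. Cacnb4 and Cacng7 were higher with FT in 6 of those 8, and Cacnb4 was lower in 1. With Bupropion, Cacna2d3 was lower in 8 of 10 regions and Cacna2d1 higher in 7 and lower in 1. With Desipramine, Cacnb4 was higher in 10 of 10, by 0.16 in BLA to 1.03 in LConly, Cacnb2 in 9, and Scn1a, Scn2a and Scn3a in 8 each. With Probiotics, Cacna2d2 was higher in 10 of 10, by 0.53 in venDG to 2.01 in ILC, Cacna2d3 was lower in 9, and Cacnb1, Cacnb3, Cacng2 and Cacng3 were higher in 9 each, with Cacnb1 and Cacng2 lower in the remaining 1. With Maltodextrin, Cacnb4 and Scn2a were higher in 8 regions and Cacnb3 lower in 8, while Scn2a was lower and Cacnb3 higher in 1. Regions of a treatment replicate are not independent, so these are counts and not tests. How many of all genes were called the same way in as many regions was not counted, so these runs are not shown to be particular to channel genes. The counts also include groups that were treated as standing apart. Besides FT in ILC and LConly, these were Control in BLA, ILC and venDG, FT in BLA and dorDG, Probiotics in LConly and dorDG, and Maltodextrin in LConly. By whole profile 3 FT libraries of dorDG lay nearest to venDG, and 2 Probiotics libraries of dorDG nearest to ILC. The BLA values above, and that of Cacna1a with FT in venDG, involve such groups.

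Of the largest single-region changes of FT, a pair lay in mPOA. Scn7a in mPOA stood at 43.6, 29.4, 32.4, 27.1 and 29.7 CPM in FT, against 7.04, 8.15, 7.9, 6.25 and 6.1 in Control, a rise of 2.18 ± 0.12 (adjusted p = 1.94e-16). In the same punch Scn4b stood at 6.73, 4.8, 5.55, 4.97 and 4.76 CPM in FT, against 13.5, 14.8, 14.4, 15.3 and 14.6 in Control, and fell by 1.46 ± 0.1 on the log2 scale (adjusted p = 3.23e-13). FT did not overlap with Control in either gene. In mPOA the GABAergic markers summed to 544 to 588 CPM in FT, against 1073 to 1184 in Control, and the excitatory markers to 199 to 289 CPM in FT, against 88 to 104 in Control. The part of these markers in the changes was not tested.

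LConly held the largest reported single-region changes of Bupropion and Desipramine. Cacng4 there rose by 1.63 ± 0.28 (adjusted p = 8.15e-06), at 2.34 ± 0.47 CPM in Bupropion and 0.739 ± 0.291 in Control (SD, n = 5 each). Cacng7 rose in LConly with both drugs, by 1.6 ± 0.23 with Bupropion (adjusted p = 4.01e-07) and by 1.72 ± 0.23 with Desipramine (adjusted p = 1.08e-07), on the same Control libraries. Cacna1g stood at 14.9, 17.7, 16.8, 16.6 and 16 CPM in Desipramine, against 3.86, 6.76, 6.08, 6.85 and 5.74 in Control, and rose by 1.45 ± 0.12 (adjusted p = 9.48e-12), and Cacna1i rose by 1.39 ± 0.29 (adjusted p = 0.000122). No Desipramine replicate of Cacna1g overlapped Control. Dbh stood at 217 to 280 CPM in Bupropion and 56 to 66.3 in Desipramine, against 152 to 165 in Control LConly, so the groups also differed in this marker of the region. Its part was not tested.

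PLC held large single-region changes of Probiotics and Maltodextrin. Cacng4 in PLC stood at 1.97, 3.52, 2.13, 2.53 and 1.77 CPM in Probiotics, against 0.469, 0.604, 0.576, 0.787 and 0.847 in Maltodextrin, a rise of 1.91 ± 0.3 (adjusted p = 3.55e-06). The same Maltodextrin libraries against 2.86, 3.5, 3.12, 2.38 and 2.95 CPM in Control gave a change of -2.2 ± 0.29 (adjusted p = 1e-07). Scn4a in PLC rose by 1.72 ± 0.48 with Probiotics (adjusted p = 0.00348), at 0.843 ± 0.299 CPM in Probiotics and 0.245 ± 0.221 in Maltodextrin (SD, n = 5 each). Replicate 4 of Maltodextrin had 0 reads of it, which allows up to 0.393 CPM. Cacnb1 in PLC stood at 34.6, 33.7, 32.4, 36.7 and 34.3 CPM in Maltodextrin, against 101, 87.4, 89, 93.8 and 93.9 in Control, and fell by 1.46 ± 0.093 (adjusted p = 1.34e-14). Cacna1i fell by 1.53 ± 0.17 (adjusted p = 7.95e-09). Both were low in all 5 Maltodextrin libraries, of which 3 lay nearest to ILC by whole profile, and over all treatments Cacnb1 averaged 33.4 CPM in ILC and 64.3 in PLC, and Cacna1i 4.22 and 6.73. Cacna2d2 in ILC rose by 2.01 ± 0.23 with Probiotics (adjusted p = 5.48e-09), at 10.3 ± 1.87 CPM in Probiotics and 2.54 ± 0.987 in Maltodextrin, and all 5 of those Probiotics libraries lay nearest to PLC.

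Whether a change differed between the 5 regions was tested directly, with treatment by region terms in 50 libraries. It did for 32 of 35 members tested with FT, when 66.7% of all genes were called, and for 31 of 37 with Bupropion (70.2%), 28 of 34 with Desipramine (62.8%), 28 of 36 with Probiotics (54.3%) and 29 of 35 with Maltodextrin (62.6%). Cacna2d1 had the smallest adjusted p with FT (1.19e-24) and with Bupropion (3.01e-21). With FT its log2 change was 1.17 in mPOA and 0.26 in Raphe, against -0.46 in NACShell, and it was not called in CGC or PLC. With Bupropion it was 0.74 in PLC, 0.71 in mPOA, 0.46 in CGC and 0.44 in Raphe, against -0.23 in NACShell. Scn2b led with Desipramine (3.9e-15), with a change of 0.64 in CGC, against -0.76 in mPOA and -0.92 in Raphe. Cacna1e led with Probiotics (8.57e-18), with 0.84 in PLC and 0.82 in mPOA, against -0.42 in NACShell. With Maltodextrin Cacnb1 (6.82e-13) had a change of -1.46 in PLC, against -0.78 in NACShell and -0.63 in Raphe. In these comparisons Cacna2d1, Scn2b and Cacna1e were called higher in some regions and lower in others.

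Proteins that anchor, modulate or tether these channels were described beside them, from a list of 26 of which 24 were in the table. With FT 11 were higher and 6 lower, with Bupropion 4 and 6, with Desipramine 13 and 7, with Probiotics 7 and 2, and with Maltodextrin 6 and 8. Over all genes tested the shares called in these comparisons were 58.7%, 50.5%, 66.4%, 51.5% and 53.3% in the same order, so that 10 of 24 with Bupropion and 9 of 24 with Probiotics lay below them. Nalcn, the sodium leak channel, rose by 0.29 with FT, 0.19 with Bupropion, 0.4 with Desipramine and 0.24 with Maltodextrin, all against the same Control. Rimbp2, which ties calcium channels to release sites, rose by 0.32 with FT and 0.35 with Desipramine. Of the calmodulin genes, Calm3 changed by -1.04 with FT, -1.04 with Desipramine and -0.62 with Maltodextrin, and Calm2 by -0.75 with FT, -0.53 with Desipramine and -0.67 with Probiotics. Calmodulin is the calcium sensor bound to the tail of both channel families. Fgf12, a modulator of sodium channels, rose by 0.22 with Bupropion, where Cntn1, an adhesion molecule that binds beta subunits, fell by 0.23 and Fgf13 fell by 0.18. Rims1, a release site scaffold, rose by 0.47 and Nfasc, an anchor of the axon initial segment, by 0.33 with Probiotics. Stac2, which slows the inactivation of L-type channels, fell by 0.58 with Maltodextrin, and Unc79, a partner of Nalcn, rose by 0.26.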

How the data were processed

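Gene counts of 300 libraries of stranded total RNA were analysed as deposited. The authors aligned reads to build rn6 and counted them per gene with STAR and HTSeq, after FastQC, per the submitters' processing notes, and no version of these tools is stated there. All columns matched a sample's labels (0 unmatched columns). Libraries were normalised by TMM, and CPM were taken from those effective library sizes. Tests used edgeR 4.0.16 (quasi-likelihood, R 4.3.3) with Benjamini-Hochberg adjustment over all genes tested, a filter on low counts, and a threshold of 0.05. Treatments were compared on counts of 5 regions summed within a treatment replicate, with an offset per gene for the depth of each region. These sums weigh regions by depth and level, and the levels printed are adjusted by the same offset. SE is the size of the log2 change over the square root of F. Regions were compared with the treatment replicate as a block. limma 3.58.1 and DESeq2 1.42.0 served as alternatives.

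The members and gene lists were chosen with earlier results of these data known. A few genes, 2 members among them, are counted in the totals but their own results are not reported here, and every other member is named at least once. Full statistics go to up to 5 higher and 5 lower members with the smallest adjusted p in a comparison, to the 3 single-region changes of largest size outside groups that stood apart, and to up to 3 members per region, and other members that are named illustrate a group. In simulated libraries of all treatments in the 5 regions, with changes planted in FT, the test recovered 64.8% of genes changed 1.2-fold and 98.6% of those changed 1.5-fold, and called 0.0484% of unchanged genes. Every simulated gene had the same dispersion, regions were drawn independently, and changes were planted only in genes with higher counts. These rates therefore show that the code works and do not give the error rates of the real data, least of all for members near 1 CPM. No 2 libraries of a group agreed within sampling noise (lowest chi-square per degree of freedom 1.34). The labels do not say what a replicate number marks. By the correlation of deviations from the group means, every same-numbered pair was over 0.1 for Probiotics and Maltodextrin (0.107 to 0.217) and for Maltodextrin and Control (0.100 to 0.392). For FT, Bupropion and Desipramine 3, 4 and 2 of 5 pairs passed 0.1. The best match of a replicate bore its own number in 5 of 5 cases for Maltodextrin and Control. It did so in 3 of 5 for Probiotics and Maltodextrin, and in 3, 3 and 2 of 5 for FT, Bupropion and Desipramine. By that measure, taken from the data, the numbers may pair samples of Maltodextrin and Control, and pairing was not established for the other comparisons.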

Additional observations from a re-analysis of the deposited data

Results flagged for a closer look

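Scn2b over the 5 regions stood apart in 1 FT replicate, at 22.1 CPM against 27.3 to 28.2 CPM in the 4 others. Cacng3 stood apart in 1 Probiotics replicate, at 45.4 CPM against 49.4 to 50.3 CPM in the 4 others. These were 2 of 72 groups of 5 replicates examined for a value far from the rest, a rule that chance meets in about 1 of 20 groups.

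The difference between treatments varied between the 5 regions, by a test of treatment by region terms with edgeR, for 32 channel genes with FT, 31 with Bupropion, 28 with Desipramine, 28 with Probiotics and 29 with Maltodextrin. Among all genes the shares were 66.7%, 70.2%, 62.8%, 54.3% and 62.6% in the same order of comparisons.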

How the results depend on the processing

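Over 5 regions the count of channel genes called stayed within 1.5 times its value under every alternative run, between 20 and 27 with FT, 13 and 23 with Bupropion, 18 and 27 with Desipramine, 25 and 29 with Probiotics, and 23 and 32 with Maltodextrin. With the replicate block, which pairs samples of the same number, the counts were 22, 19, 26, 26 and 29 in that order, and 222, 186, 199, 215 and 184 pairs of a gene and a region in single regions. It ended 1 call over 5 regions, that of Cacna1h with Probiotics. Leaving out 1 replicate gave 21 to 25 genes with FT, 15 to 17 with Bupropion, 24 to 28 with Desipramine, 24 to 27 with Probiotics and 25 to 28 with Maltodextrin. Among the genes named by rule 4 changes changed sign. Against Control and Maltodextrin pooled, Cacnb4 with Bupropion came to -0.016, Scn2a with Bupropion to -0.023 and Cacng3 with Desipramine to 0.066, and without NACShell Cacng4 with Bupropion came to -0.084, and the cause was not tested. Among all members called over 5 regions, Cacna1d (-0.11) and Cacna1h (-0.23) with Probiotics and Scn7a with Desipramine (-0.22) and Maltodextrin (-0.19) were called lower over 10 regions, against rises of 0.087, 0.27, 0.54 and 0.45. Over 8 regions Cacna1d (-0.19), Cacna1h (-0.3) and Scn2b (-0.21) were called lower with Probiotics. Pairs called in the 5 regions alone, an alternative chosen after seeing the data, numbered 104, 93, 98, 114 and 102, because fewer regions enter. In Control libraries alone 60 pairs of a gene and a region were higher than the mean of the other regions, against 35 in all treatments, and the cause was not tested. Over all 10 regions the split of higher and lower genes was 17 and 10 with FT, 20 and 7 with Probiotics and 14 and 9 with Maltodextrin, and over 8 regions 14 and 10 with FT, 11 and 16 with Desipramine and 19 and 7 with Probiotics. Genes near 1 CPM or below, such as Cacng1, Cacng6, Scn10a and Scn11a, are limited by depth.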
